A study of Mus musculus with 9 samples.

Results

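Tenascins, thrombospondins, osteopontin, periostin, SPARC and fibronectin are secreted proteins that cells deposit around themselves. Most of them are matricellular: they bind cell surface receptors and growth factors rather than build the scaffold of the matrix, and fibronectin is the fibril-forming protein on which several of them dock. In skeletal muscle they surround the satellite cells, the stem cells that lie between a muscle fibre and its basement membrane and that divide and fuse to repair it. The 10 genes described here were picked by symbol (Tnc, Tnxb, Thbs1, Thbs2, Thbs3, Thbs4, Spp1, Postn, Sparc and Fn1) out of 45706 genes in the deposited table, and their values in these same libraries were known when they were picked. Differences between stages are therefore given for them as a description, without a p-value.

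RNA was sequenced from satellite cells of wild type C57Bl6 mice that were 12 to 20 weeks old, at 3 stages with 3 samples from different animals each. The stages were freshly isolated cells, proliferating cells grown for at least 3 days with 20% fetal calf serum and 2.5 ng/ml FGF-2, and myotubes, the fused muscle cells obtained after a further 6 days in 2% horse serum. Only the gene table of these 9 libraries was used. Its values are gene-level read counts after a scaling and rounding step of the authors, called normalized read counts here. A log2 difference is the difference of mean log2(value + 1), with the standard error (SE) of a model over all libraries. That model gives each gene 1 spread shared by the 3 stages, so the SE also holds the scatter of the stage outside the comparison. The samples are bulk RNA, in which fewer cells of a type and less RNA per cell cannot be told apart.

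The libraries summed to 20.1 to 26.2 M normalized read counts in freshly isolated cells, 17.8 to 18.2 M in proliferating cells and 19.5 to 20.8 M in myotubes. Low values fall on steps from which 1 read was worth 1.04 to 2.18 units in the freshly isolated and 0.749 to 0.871 units in the proliferating libraries, and 0.854 units in 1 myotube library, while no single step was found in the other 2. Among the stage landmarks, Pax7, the satellite cell transcription factor, lay at 11694 to 15700 in freshly isolated cells, 2556 to 3330 in proliferating cells and 1192 to 1645 in myotubes, and the embryonic myosin gene Myh3 at 23 to 83 in freshly isolated cells, 3055 to 23038 in proliferating cells and 296158 to 335321 in myotubes. The proliferation marker Mki67 lay at 66 to 471 in freshly isolated cells, 22495 to 25457 in proliferating cells and 7550 to 13203 in myotubes. A pair of libraries differed from their stage mates. In freshly isolated replicate 1 the non-coding gene Gm26917 held 22.2% of the total, against 10.6% and 11.2% in replicates 2 and 3. Proliferating replicate 1 had the lowest Myh3 of its stage, 3055 against 23038 and 15385.

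The sequence feature by which several of these proteins are known to bind integrins, the main matrix receptors, is arginine-glycine-aspartate. In-frame codons for it were searched in the longest GENCODE vM21 coding transcript of each gene, and 5 of the 10 genes hold at least 1, against 8.91% of 13666 tested genes with a complete coding transcript. A longer coding sequence has more places for such codons. The transcripts of the 10 genes have 295 to 4006 codons, and the share over all genes was not matched for length. The 7 sites are shown with 4 codons before and 3 after, in the sense of the messenger, with the codons for the motif in capitals and numbered from the start codon. In Spp1 and Fn1 the first site listed is the known integrin-binding motif of the protein.

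Spp1 codon 145: gtccccaacggcCGAGGTGATagcttggct
Fn1 codon 1614: gctgtcactggcCGTGGGGACagtccagca
Fn1 codon 2181: ggtcatgttcccAGGGGAGACgtagactac
Thbs1 codon 927: gatggtgatggcCGAGGTGACgcctgcaaa
Thbs2 codon 928: gacggtgacggcCGAGGTGACatttgtaaa
Thbs4 codon 564: gacggggatgggAGAGGAGACgcctgtgat
Thbs4 codon 138: agcaatttgcagAGAGGAGATggctctgta

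No such codons were found in these transcripts of Tnc (2110 codons), Tnxb (4006), Thbs3 (956), Postn (838) or Sparc (332). The genes with the motif did not share a direction between stages: in proliferating against freshly isolated cells Spp1, Fn1 and Thbs1 were higher, Thbs2 was lower, and Thbs4 overlapped.

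The 2 tenascins had opposite patterns: Tnc was highest in proliferating cells, and Tnxb was high in freshly isolated cells and near 0 in culture. Tnc encodes tenascin-C, a hexameric protein found in developing and injured tissue, and lies at chr4:63959785-64047015 on the minus strand of GRCm38. Tnc had 233, 140 and 62 normalized read counts in freshly isolated cells, 7362, 4092 and 3775 in proliferating cells, and 1185, 1327 and 1114 in myotubes. The 3 stages did not overlap, with the proliferating libraries highest and the freshly isolated ones lowest. Its log2 difference was 5.25 ± 0.41 (SE, n = 3 per stage, as for all that follow) for proliferating against freshly isolated cells, -2.01 ± 0.41 for myotubes against proliferating cells and 3.24 ± 0.41 for myotubes against freshly isolated cells. Proliferating replicate 1, the library low in Myh3, held the highest Tnc value. Without it the log2 difference was 4.95 for proliferating against freshly isolated cells and -1.70 for myotubes against proliferating cells.

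Tnxb encodes tenascin-X, the tenascin of mature connective tissue whose loss in humans causes a form of Ehlers-Danlos syndrome, and lies at chr17:34670535-34719815 on the plus strand. Tnxb had 24577, 18478 and 16419 normalized read counts in freshly isolated cells, 15, 14 and 19 in proliferating cells, and 13, 4 and 5 in myotubes. It averaged 16 ± 2.65 in proliferating cells, against 19825 ± 4242 in freshly isolated cells (SD, n = 3 each), a log2 difference of -10.18 ± 0.36. Myotubes were lower again than proliferating cells, by -1.17 ± 0.36, with the nearest libraries at 13 and 14. These are an estimated 18, 19 and 22 reads in the proliferating libraries. Myotube replicate 2, the only myotube library with a known step, had an estimated 5 reads. Myotubes against freshly isolated cells gave -11.35 ± 0.36.

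The thrombospondins fall into the trimeric Thbs1 and Thbs2, which are known to bind CD36 and CD47 and to restrain blood vessel growth, and the pentameric Thbs3 and Thbs4. In the trimeric pair the order of the stages differed. Thbs1, which is also known to release TGF-beta from its latent complex, lies at chr2:118111876-118127133 on the plus strand and had 2784, 1985 and 2097 normalized read counts in freshly isolated cells, 27340, 28960 and 26562 in proliferating cells, and 2726, 2883 and 2327 in myotubes. All 3 proliferating libraries stood far above the other 6, and myotubes overlapped with freshly isolated cells. The difference was 3.61 ± 0.13 on the log2 scale (12.2-fold) for proliferating against freshly isolated cells, -3.39 ± 0.13 (10.5-fold lower) for myotubes against proliferating cells and 0.22 ± 0.13 for myotubes against freshly isolated cells. The last of these was 0.37 without freshly isolated replicate 1, and the libraries then did not overlap.

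Thbs2, at chr17:14665500-14694235 on the minus strand, had 10147, 13406 and 10016 normalized read counts in freshly isolated cells, 171, 178 and 206 in proliferating cells, and 243, 266 and 263 in myotubes. The freshly isolated libraries were the high ones, and the cultured stages lay close together without overlapping. The log2 difference was -5.90 ± 0.13 (59.8-fold lower) for proliferating and -5.42 ± 0.13 (43-fold lower) for myotubes, each against freshly isolated cells. Between myotubes and proliferating cells it was 0.48 ± 0.13 (1.39-fold), and 0.20, with overlapping libraries, when the libraries were rescaled to equal totals without Gm26917.

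Thbs3 lies at chr3:89215180-89226837 on the plus strand and had 525, 416 and 455 normalized read counts in freshly isolated cells, 44, 49 and 42 in proliferating cells, and 18, 20 and 16 in myotubes. It stepped down from stage to stage with no overlap, by -3.34 ± 0.22 (10.1-fold lower) in proliferating against freshly isolated cells and by -1.28 ± 0.22 (2.43-fold lower) in myotubes against proliferating cells. Myotubes against freshly isolated cells gave -4.62 ± 0.22 (24.5-fold lower). Of its exons 6.59% of bases are shared with Mtx1 on the opposite strand, and whether reads were counted by strand is not stated. Mtx1, a mitochondrial import gene, had 285, 281 and 319 in freshly isolated cells, 341, 344 and 331 in proliferating cells, and 252, 252 and 297 in myotubes, so it did not share the pattern of Thbs3.

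Thbs4, which is known from muscle and tendon attachment, lies at chr13:92751590-92794818 on the minus strand and was low throughout. It had 0, 25 and 30 normalized read counts in freshly isolated cells, 1, 4 and 6 in proliferating cells, and 26, 38 and 22 in myotubes. Myotubes did not overlap with proliferating cells (log2 difference 2.81 ± 1.14), and both comparisons with freshly isolated cells overlapped (-1.18 ± 1.14 for proliferating cells and 1.64 ± 1.14 for myotubes). Both rest on freshly isolated replicate 1, in which Thbs4 is listed at 0: without it they were -2.78, with no overlap, and 0.03. Leaving out replicate 2 gave -0.43 and 2.38, and leaving out replicate 3 gave -0.31 and 2.50.

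**Figure D1:**
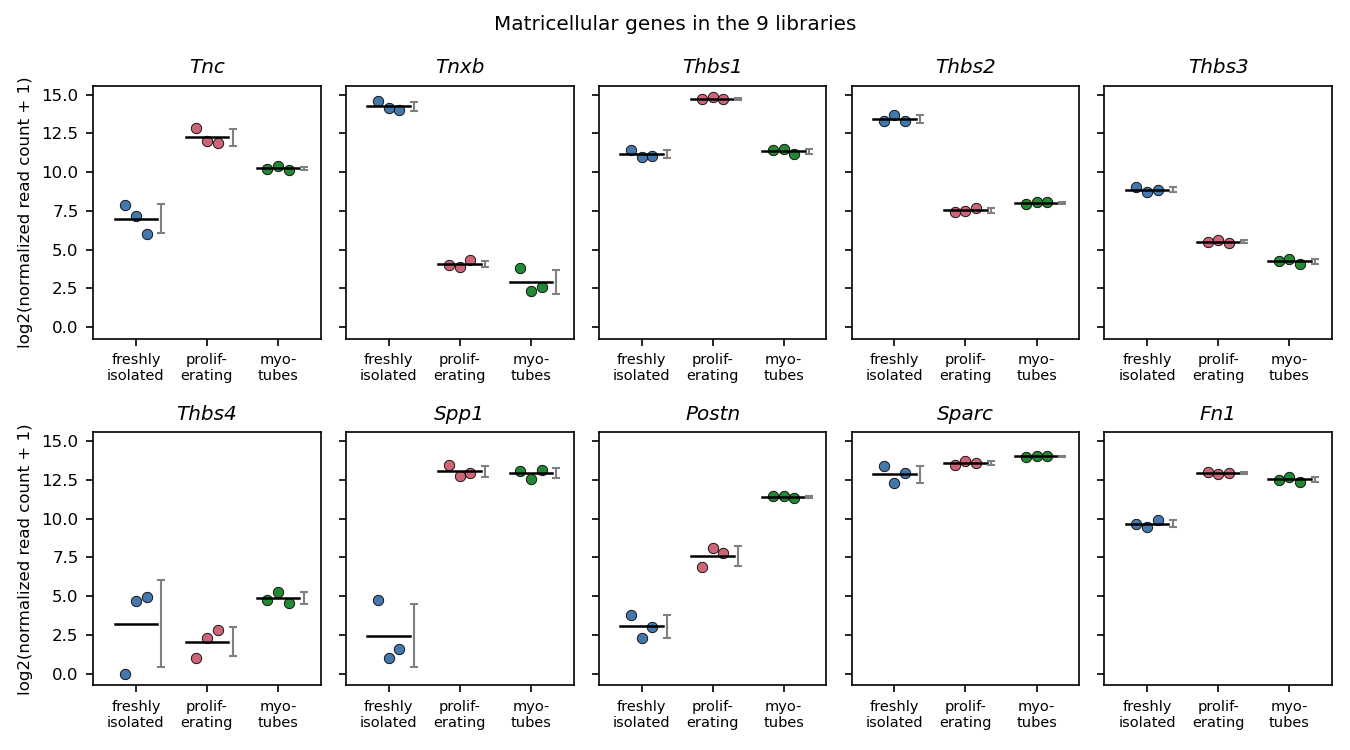
Log2(normalized read count + 1) of the 10 genes, with 1 point per library, grouped by stage (freshly isolated, proliferating, myotubes), a black line at the mean of each stage and a grey bar of 1 SD to either side. Tnxb, Thbs2 and Thbs3 are highest in the freshly isolated libraries, Tnc and Thbs1 in the proliferating ones, and Postn and Sparc in the myotubes.

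Spp1 and Postn were almost without reads in freshly isolated cells and abundant in at least 1 cultured stage. Spp1 encodes osteopontin, a phosphorylated integrin and CD44 ligand of bone and of injured tissue, and lies at chr5:104435118-104441050 on the plus strand. Spp1 had 26, 1 and 2 normalized read counts in freshly isolated cells, an estimated 12, 1 and 2 reads, then 11198, 7040 and 7970 in proliferating cells and 8819, 6144 and 8894 in myotubes. Proliferating cells and myotubes overlapped (log2 difference -0.13 ± 0.76, where the SE includes the scatter of the freshly isolated libraries), and both stood far above freshly isolated cells. Their log2 differences from freshly isolated cells were 10.62 ± 0.76 and 10.49 ± 0.76, and these sizes depend on the pseudocount: 10.85 and 10.73 with 0.5, and 9.79 and 9.67 with 4. They also depend on the few reads of single freshly isolated libraries, being 11.77 and 11.64 without replicate 1 and 9.89 and 9.77 without replicate 2. The same-strand gene model Gm42793 shares 18.75% of Spp1's exon bases and had 0, 0 and 1 in freshly isolated cells, 60, 29 and 37 in proliferating cells, and 12, 15 and 23 in myotubes.

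Osteopontin is also a macrophage product, and the leukocyte markers are given beside it. The 7 listed markers summed to 662 to 690 in freshly isolated cells, 65 to 85 in proliferating cells and 245 to 258 in myotubes, and 3 of the 7 passed the filter on low values. Ptprc, Adgre1, Lyz2 and Tyrobp lay between 0 and 14 in freshly isolated cells and between 0 and 3 in the cultured libraries, and Cd68 fell to 50 to 67 in proliferating cells and 21 to 25 in myotubes, against 549 to 629 in freshly isolated cells. Itgam made up most of the sum in myotubes, at 213 to 229. The part of leukocytes in the Spp1 values was not tested.

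Postn encodes periostin, a TGF-beta-induced protein of periosteum, tendon and healing muscle, and lies at chr3:54361109-54391037 on the plus strand. Postn had 13, 4 and 7 normalized read counts in freshly isolated cells, 116, 275 and 217 in proliferating cells, and 2791, 2788 and 2554 in myotubes. It stepped up at each stage without overlap, by a log2 difference of 4.54 ± 0.39 in proliferating against freshly isolated cells and of 3.82 ± 0.39 (14.1-fold) in myotubes against proliferating cells. Myotubes against freshly isolated cells gave 8.36 ± 0.39. Proliferating replicate 1, low in Myh3, was the lowest library of its stage for Postn, and without it the first 2 differences were 4.90 and 3.47. Of the 5 tenocyte markers only Scx, a tendon transcription factor, was higher in culture, with 92 to 118 in freshly isolated cells, 1495 to 1753 in proliferating cells and 3104 to 4071 in myotubes. Mkx had 144, 143 and 95 in freshly isolated cells, 99, 85 and 91 in proliferating cells, and 63, 59 and 74 in myotubes, and Fmod had 124, 94 and 78, then 1, 4 and 3, and then 21, 25 and 18 at the same stages. Kera was at 0 in every library, and Tnmd at 0 in every proliferating and myotube library. The 5 markers summed to 265 to 386 in freshly isolated cells, 1595 to 1847 in proliferating cells and 3188 to 4163 in myotubes, and their part in the Postn values was not tested.

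Sparc and Fn1 were measured well above background at all stages. Sparc, also called osteonectin, is a calcium- and collagen-binding glycoprotein of remodelling tissue and lies at chr11:55394500-55423183 on the minus strand. Sparc had 10759, 5001 and 7794 normalized read counts in freshly isolated cells, 11544, 13337 and 12233 in proliferating cells, and 16432, 17167 and 17062 in myotubes. Its stages did not overlap, but its differences were the smallest of the 10 genes for proliferating against freshly isolated cells, at 0.72 ± 0.22 (1.65-fold). Myotubes were higher by 0.45 ± 0.22 (1.37-fold) than proliferating cells, a value of 0.17 after rescaling to equal totals without Gm26917, and by 1.17 ± 0.22 (2.26-fold) than freshly isolated cells.

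Fn1, the fibronectin gene, lies at chr1:71585520-71653200 on the minus strand. It had 811, 713 and 952 normalized read counts in freshly isolated cells, 8262, 7592 and 7740 in proliferating cells, and 5772, 6719 and 5386 in myotubes. Both cultured stages stood above freshly isolated cells, by 3.26 ± 0.12 (9.58-fold) in proliferating cells and 2.85 ± 0.12 (7.23-fold) in myotubes. Myotubes lay below proliferating cells by a smaller step, -0.41 ± 0.12 (1.32-fold lower), with no overlap.

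**Figure D2:**
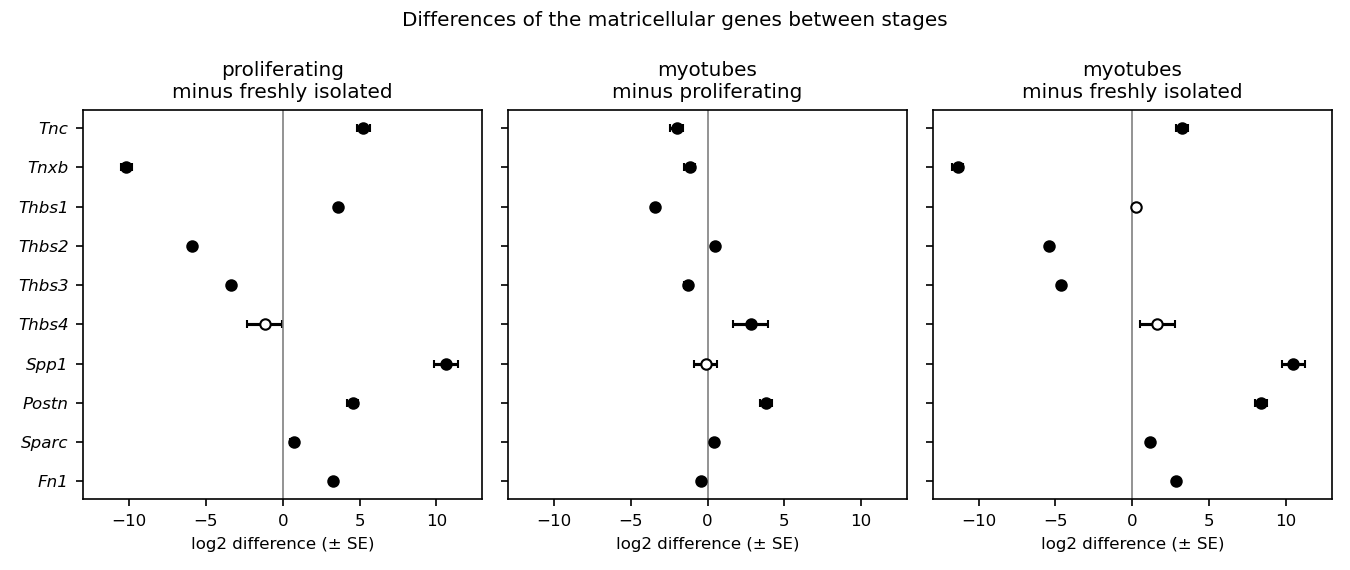
Log2 difference of each of the 10 genes in each of the 3 comparisons, with bars of 1 SE from the model over all 9 libraries and open points where the libraries of the 2 stages overlap. Tnxb at -10.18 and Spp1 at 10.62 mark the ends for proliferating against freshly isolated cells, and Thbs1 lies near 0 only for myotubes against freshly isolated cells.

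All 10 genes passed the filter of 10 or more in at least 3 libraries, which 17291 genes passed. Thbs4 passed only through the myotube libraries, so its place among those higher in myotubes than in proliferating cells was favoured by the filter. Between proliferating and freshly isolated cells the libraries did not overlap for 9 of the 10, with 6 higher and 3 lower, where this held for 74% of all genes tested (37.7% higher and 36.3% lower). The same 6 and 3 passed the limma threshold, which 73.3% of all genes passed (37.6% higher and 35.7% lower). Between myotubes and proliferating cells 4 were higher and 5 lower without overlap, against 70.9% of all genes (37.3% higher and 33.5% lower), and 2 higher and 5 lower passed the threshold, against 54.1% (28.6% higher and 25.5% lower). Thbs4, Spp1 and Sparc did not pass there, and the calls of Tnxb, Fn1, Sparc and Thbs4 changed when single libraries were left out. The spread used there includes the freshly isolated libraries. Sparc averaged 7851 ± 2879 in these, against 12371 ± 904 in proliferating cells and 16887 ± 398 in myotubes (SD, n = 3 each). Between myotubes and freshly isolated cells 5 were higher and 3 lower by either rule, against 78.7% of all genes without overlap (40.7% higher and 38% lower) and 77.6% past the threshold (40.2% higher and 37.3% lower). Since the genes were picked with these values known, nothing is read from these counts. Of the genes called between myotubes and proliferating cells, 4951 were higher and 4402 lower in myotubes as deposited, and 3665 higher and 5707 lower after rescaling to equal totals without Gm26917.

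Levels of different genes can be compared only per length, and normalized read counts were divided by the merged exon length of each gene in kilobases. In freshly isolated cells the order was led by Sparc at 2073 ± 760 per kilobase (SD, n = 3, as below), Tnxb at 1624 ± 347 and Thbs2 at 1598 ± 274. These 3 differed by less than the spread of Sparc. Thbs1 followed at 377 ± 71.2, then Thbs3 at 96.5 and Fn1 at 70.6, while Tnc, Spp1, Thbs4 and Postn lay between 18.7 and 0.919. In proliferating cells Spp1 stood at 5301 ± 1324, Thbs1 at 4548 ± 201, Sparc at 3266 ± 239, Fn1 at 673 ± 30.1 and Tnc at 653 ± 256, and the other 5 lay between 26.4 for Thbs2 and 1.11 for Thbs4. Spp1 and Thbs1 differed by less than the spread of Spp1, as did Fn1 and Tnc by that of Tnc. In myotubes Spp1 at 4825 ± 951 and Sparc at 4458 ± 105 again differed by less than their spread, followed by Fn1 at 510 ± 58.7, Thbs1 at 436 ± 47.2, Postn at 312 ± 15.6 and Tnc at 156 ± 14, and the other 4 lay between 36.7 for Thbs2 and 0.601 for Tnxb. The 10 genes together summed to 5249 to 6986 per kilobase in freshly isolated libraries, 13654 to 16047 in proliferating and 9855 to 11230 in myotube libraries.

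A share of the summed level of the 10 genes per length shows how the mixture differed. Sparc made up 34.7% ± 8.35, Thbs2 27.9% ± 7.95 and Tnxb 27.6% ± 2.19 in freshly isolated cells. Spp1 made up 36.2% ± 5.75, Thbs1 31.5% ± 3.27 and Sparc 22.7% ± 3.35 in proliferating cells. In myotubes Spp1 with 44.6% ± 5.88 and Sparc with 41.7% ± 3.79 left little for the rest. The order depends on the length used. With the longest coding transcript in place of merged exons, Sparc had 44%, Thbs2 25.8% and Tnxb 21.3% in freshly isolated cells, and Spp1 had 32.5%, Sparc 30.6% and Thbs1 26.8% in proliferating cells. In myotubes Sparc then led with 49.5% over Spp1 with 35.3%, and Postn had rank 3 with 846 per kilobase, above Fn1 with 717, since its longest coding transcript has 3205 bases and its merged exons 8702. Against 17209 tested genes with a length, Tnxb ranked above 97.8% of them in freshly isolated cells, 7.3% in proliferating cells and 3.15% in myotubes. Spp1 ranked above 13.9%, 99.7% and 99.3% at the same stages, and Sparc above 98.5%, 99.3% and 99.2%.

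**Figure D3:**
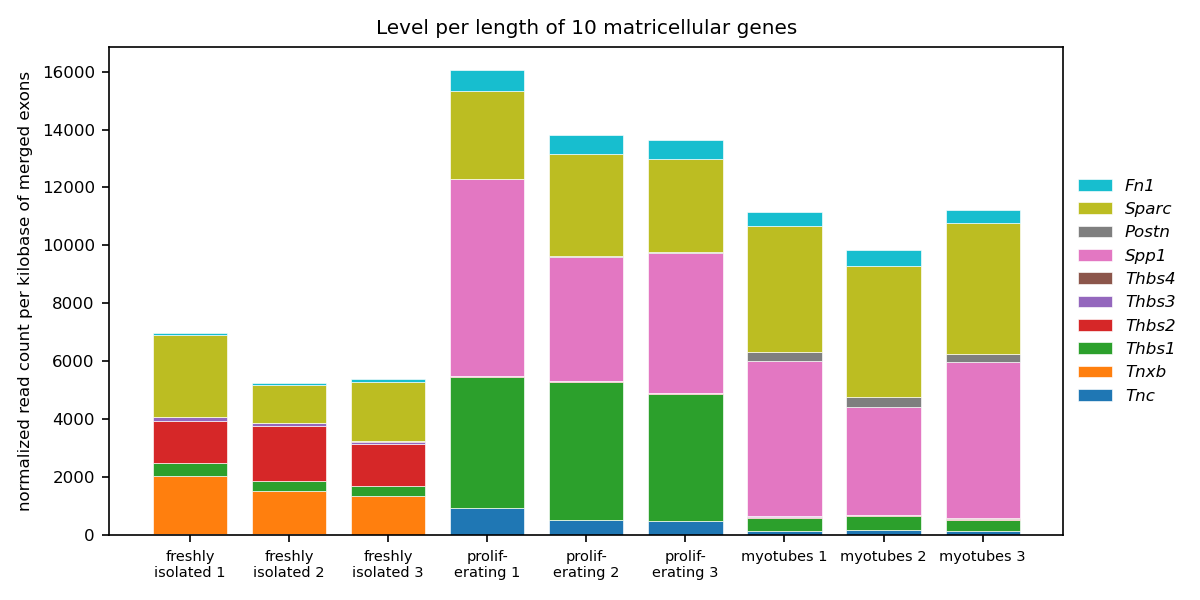
Normalized read count per kilobase of merged exons of the 10 genes, stacked, with 1 bar for each of the 9 libraries in the order freshly isolated, proliferating, myotubes. Bars of proliferating cells are the tallest, Tnxb and Thbs2 are visible in freshly isolated cells alone, and Sparc is large in every library.

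Promoter sequence was taken from RefSeq (GRCm38.p6), 250 bases before to 50 after the start site, for the 8 genes matched: Tnc, Tnxb, Thbs2, Thbs3, Thbs4, Spp1, Postn and Sparc. Those of Spp1 and Postn, near 0 in freshly isolated cells, and of Tnxb and Thbs2, high there, are shown on the strand of the gene. Capitals mark matches, on either strand, to the motifs searched. These were TATAAA of the TATA box, the AP-1 motif TGANTCA, the TEAD motif CATTCC, the E-box CAGCTG and the Sp1 motif GGGCGG.

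Spp1, chr5:104434861-104435160, plus strand: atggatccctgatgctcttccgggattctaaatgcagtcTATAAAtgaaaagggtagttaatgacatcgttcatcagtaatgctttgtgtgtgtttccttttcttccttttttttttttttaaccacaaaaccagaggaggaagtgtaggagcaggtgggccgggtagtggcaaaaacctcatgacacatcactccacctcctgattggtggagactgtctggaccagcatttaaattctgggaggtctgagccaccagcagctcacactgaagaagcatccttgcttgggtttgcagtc
Postn, chr3:54360857-54361156, plus strand: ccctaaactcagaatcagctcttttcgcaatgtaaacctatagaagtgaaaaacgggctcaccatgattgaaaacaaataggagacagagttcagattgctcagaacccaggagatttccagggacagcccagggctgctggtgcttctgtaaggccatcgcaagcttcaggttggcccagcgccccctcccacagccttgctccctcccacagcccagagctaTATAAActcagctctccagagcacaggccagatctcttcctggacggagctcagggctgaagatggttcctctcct
Tnxb, chr17:34670285-34670584, plus strand: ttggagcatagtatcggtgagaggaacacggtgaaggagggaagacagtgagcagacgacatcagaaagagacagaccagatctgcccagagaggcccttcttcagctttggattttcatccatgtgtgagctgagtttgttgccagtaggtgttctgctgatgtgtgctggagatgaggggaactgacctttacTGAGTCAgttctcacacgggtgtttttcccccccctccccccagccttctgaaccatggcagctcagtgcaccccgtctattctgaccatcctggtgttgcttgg
Thbs2, chr17:14694213-14694512, minus strand: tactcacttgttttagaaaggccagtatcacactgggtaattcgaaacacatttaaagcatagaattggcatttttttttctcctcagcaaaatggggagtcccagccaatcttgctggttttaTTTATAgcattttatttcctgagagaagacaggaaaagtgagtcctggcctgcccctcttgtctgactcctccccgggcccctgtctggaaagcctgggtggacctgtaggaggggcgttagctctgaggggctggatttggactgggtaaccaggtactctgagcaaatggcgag

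TATAAA was found in 4 of the 8 promoters (Tnc, Thbs2, Spp1 and Postn), against 13.6% of 32851 mouse promoters of the same length. In Postn it lies 26 to 21 bases before the start site, and in Spp1 211 to 206 bases before it. In Thbs2 it is read on the other strand. TGANTCA was found in Tnxb alone among the 8, 55 to 49 bases before the start (7.81% of all promoters). CATTCC was found in Thbs4 (14.7% of all), CAGCTG in Sparc (16.3%), whose RefSeq start lies 3103 bases from the GENCODE start, and GGGCGG in Tnc, Thbs3 and Thbs4 (35.7%). The genes with TATAAA include both directions between stages, and these letters alone say nothing of a factor bound there.

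For each gene the 2 other genes with the most similar pattern, by Pearson correlation of log2(value + 1) over the 9 libraries, are given as a description. The 3 stages set most of such a correlation, and it does not measure the size of a change. Tnxb was closest to Clstn3 (0.9985) and Heca (0.9977), Thbs2 to Klf4 (0.9993) and Hspa2 (0.9990), and Thbs3 to Elmsan1 (0.9989) and Tob2 (0.9988), all genes high in freshly isolated cells. Thbs1 was closest to Acsl5 (0.9981) and Rcc1 (0.9969), Tnc to Rnaseh2b (0.9933) and Cep290 (0.9929), and Fn1 to Nup107 (0.9980) and Hist1h2bn (0.9966). Spp1 was closest to Gipc1 (0.9982) and Wipi1 (0.9978), Postn to Sgcb (0.9997), a sarcoglycan of the muscle membrane, and Reep1 (0.9991), Sparc to Wdr7 (0.9970) and Pigx (0.9883), and Thbs4 to Zmym2 (0.9754) and Selo (0.9679). Zmym2 and Selo were both lowest in freshly isolated replicate 1, at 1991 and 72, where Thbs4 is at 0.

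The pattern of Tnxb, Thbs2 and Thbs3 was set beside fibroblast markers, since fibroblasts also make these matrix proteins. The 9 markers summed to 12096 to 22042 normalized read counts in freshly isolated cells. The sums were 3173 to 3207 in proliferating cells and 3918 to 5109 in myotubes. Of the 7 that passed the filter, 1 rose and 6 fell in proliferating against freshly isolated cells by the limma threshold. Of all genes tested, 37.6% rose and 35.7% fell. In myotubes against freshly isolated cells 2 of the 7 rose and 5 fell, where 40.2% of all genes rose and 37.3% fell. Dcn, Dpt, Pi16 and Cxcl14 passed the filter only through the freshly isolated libraries, so that their lower value in culture was fixed by the filter. Most of each sum was Col3a1, with 7414 to 18751 in freshly isolated cells, 3119 to 3154 in proliferating cells and 3224 to 4447 in myotubes. The defining fibro-adipogenic marker Pdgfra was low at all stages and went the other way, with 4, 5 and 9 in freshly isolated cells, 19, 13 and 22 in proliferating cells, and 14, 12 and 17 in myotubes. Col1a1 was highest in myotubes, with 307, 160 and 151 in freshly isolated cells, 18, 27 and 16 in proliferating cells, and 834, 631 and 658 in myotubes. In freshly isolated cells Dpt was at 2449, 3554 and 3249 and Dcn at 405, 840 and 1006. Lum, Dpt and Cxcl14 were at 0 in all proliferating libraries. Pericyte or smooth muscle markers summed to 23023 to 24298 in freshly isolated cells, 2859 to 4277 in proliferating cells and 3849 to 4693 in myotubes. Notch3, which satellite cells also express, set the first of these sums (21732 to 23211), while Cspg4 was highest in proliferating cells (1625 to 2123) and Abcc9 in myotubes (1420 to 1751). Endothelial markers summed to 127 to 244, 90 to 123 and 103 to 133, and Schwann cell markers to 213 to 303, 93 to 98 and 59 to 99, at the same stages. The endothelial markers differed in direction. Pecam1 lay at 59 to 155, 26 to 41 and 8 to 15, Cdh5 at 17 to 50, 1 to 2 and 0 to 3, and Kdr at 18 to 22, 16 to 52 and 3 to 5. Vwf lay at 21 to 41, 28 to 46 and 85 to 114, and made up most of the myotube sum. Tie1 and Emcn lay between 0 and 11. The part of any of these cells in the values of the 10 genes was not tested.

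Relatives of the 10 genes that the choice did not name were tested in the same limma fit, with Benjamini-Hochberg adjustment over all genes. This list and those of receptors, enzymes and TGF-beta genes below were also chosen with earlier results of these data known. Their counts and p-values are therefore a description and not an independent test. Of 21 relatives (other tenascins, CCN proteins, SPARC-like proteins, integrin-binding bone proteins and vitronectin), 16 passed the filter, and 2 rose, 9 fell and 5 did not pass the test in proliferating against freshly isolated cells. Of the 16, 5 (Comp, Tgfbi, Sparcl1, Spock3 and Vtn) passed the filter only through the freshly isolated libraries, so that a lower value in culture was fixed by the filter, and 1 only through the proliferating ones. Of the other 10, 2 rose, 4 fell and 4 did not pass, with a median log2 change of -0.40. Among the 14351 genes tested that did not depend on a single stage in this way, 6079 rose and 4639 fell, with a median of 0.22. When freshly isolated replicate 3 was left out, 12 of the relatives passed the filter and 7 were called. Among those that the filter fixed, Vtn, the cell attachment protein vitronectin, had 1, 0 and 2 in proliferating cells, against 586, 775 and 697 in freshly isolated cells.

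Among the CCN proteins, small matrix signalling proteins, 3 differed in direction or size. Ctgf, a TGF-beta and YAP target, fell to 215, 90 and 100 in proliferating cells, against 4826, 4996 and 4766 in freshly isolated cells (-5.27 ± 0.28, limma adjusted p = 8.64e-08). Wisp1 rose to 2897, 3579 and 3288 in proliferating cells, against 416, 387 and 394 in freshly isolated cells (3.02 ± 0.09, limma adjusted p = 2.68e-09). Cyr61 averaged 4340 ± 461 in proliferating cells and 11655 ± 800 in freshly isolated cells (-1.43 ± 0.10, limma adjusted p = 5.22e-07). Wisp1 and Cyr61 were chosen for this comparison after their values were seen. Sparcl1, a SPARC relative, had 1, 0 and 2 in proliferating cells, against 153, 212 and 259 in freshly isolated cells. Spock3, a proteoglycan with a SPARC-like domain, had 6, 4 and 4 in proliferating cells, against 107, 177 and 108 in freshly isolated cells.

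In myotubes against proliferating cells 1 of these 10 relatives rose, 3 fell and 6 did not pass (median -0.10, beside 0.03 for the 14351 genes). Of those 14351 genes, 4370 rose and 4119 fell. Wisp1 and Cyr61 were among the relatives that fell, at -0.96 ± 0.09 (limma adjusted p = 1.77e-05) and -0.90 ± 0.10 (limma adjusted p = 3.44e-05). Against freshly isolated cells 3 of the 10 rose, 5 fell and 2 did not pass in myotubes (median -1.24, beside 0.25), with Ctgf at -5.44 ± 0.28. Of the 14351 genes, 6313 rose and 4879 fell there. Vtn, Spock3 and Sparcl1 averaged 4.67 ± 2.52, 4.33 ± 1.15 and 13 ± 5 in myotubes, against 686 ± 95, 131 ± 40.1 and 208 ± 53.1 in freshly isolated cells (SD, n = 3 each).

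Of 22 receptors known to bind one or more of these proteins, all passed the filter, and 8 rose, 11 fell and 3 did not pass in proliferating against freshly isolated cells (median -0.37), where 37.6% of all genes rose and 35.7% fell. Itgb6, whose integrin with alpha-v binds fibronectin, tenascin-C and latent TGF-beta, rose to 673, 1320 and 1192 in proliferating cells, against 2, 33 and 25 in freshly isolated cells (6.20 ± 0.74, limma adjusted p = 2.72e-05). Its size rests on the low freshly isolated values, being 5.10 without replicate 1 and 6.85 without replicate 2. Sdc4, a heparan sulphate proteoglycan that acts with integrins on fibronectin and is used as a satellite cell marker, fell to 2651, 2303 and 2083 in proliferating cells, against 87979, 65072 and 59578 in freshly isolated cells (-4.90 ± 0.15, limma adjusted p = 2.17e-09). Ptprz1, a phosphatase that binds tenascin-C, fell to 19, 18 and 10 in proliferating cells, against 1294, 1771 and 2007 in freshly isolated cells (-6.69 ± 0.31, limma adjusted p = 3.5e-08). Itga8, an osteopontin- and fibronectin-binding integrin chain, also fell (-5.48 ± 0.37, limma adjusted p = 4.35e-07). Cd44 rose to 10243, 10303 and 8721 in proliferating cells, against 3983, 5776 and 5148 in freshly isolated cells (0.99 ± 0.13, limma adjusted p = 6.35e-05), and was chosen from this list after its values were seen, as a known osteopontin receptor.

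In myotubes against proliferating cells 8 receptors rose, 9 fell and 5 did not pass (median -0.09), where 28.6% of all genes rose and 25.5% fell as deposited. Those with the greatest changes rose, and include the integrin chains alpha-4 and alpha-9, which bind fibronectin, osteopontin and tenascin-C. Itga9 had 276, 271 and 343 in myotubes, against 24, 25 and 29 in proliferating cells (3.46 ± 0.60, limma adjusted p = 0.000715), and Itga4 had 375, 498 and 336 in myotubes, against 34, 45 and 22 in proliferating cells (3.58 ± 0.64, limma adjusted p = 0.000925). Cd36, a thrombospondin and fatty acid receptor, had 287, 251 and 278 in myotubes, against 1, 4 and 1 in proliferating cells (6.65 ± 1.12). It passed the filter only through the myotube libraries, so that a higher value there was favoured by the filter. Of the other 21 receptors, 7 rose, 9 fell and 5 did not pass (median -0.20). Among the 14351 genes that did not depend on a single stage, 4370 rose and 4119 fell. Cacna2d1, a calcium channel subunit and thrombospondin receptor, had 7683, 7408 and 9018 in myotubes, against 895, 1060 and 1012 in proliferating cells (3.02 ± 0.10, limma adjusted p = 1.44e-07).

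Myotubes against freshly isolated cells had 9 receptors that rose and 10 that fell (median -0.22), where 40.2% of all genes rose and 37.3% fell. Without Cd36, which the filter favoured in myotubes, 8 rose, 10 fell and 3 did not pass (median -0.31). Itgb6 rose by 8.01 ± 0.74, and by 6.91 without freshly isolated replicate 1 and 8.66 without replicate 2. Itga4 rose by 7.11 ± 0.64, and by 7.85 and 6.35 without the same replicates. Itga9 rose by 5.80 ± 0.60, and by 6.55 without freshly isolated replicate 2 and 5.09 without replicate 3. Sdc4 fell by 6.61 ± 0.15 (limma adjusted p = 3.28e-10).

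**Figure D4:**
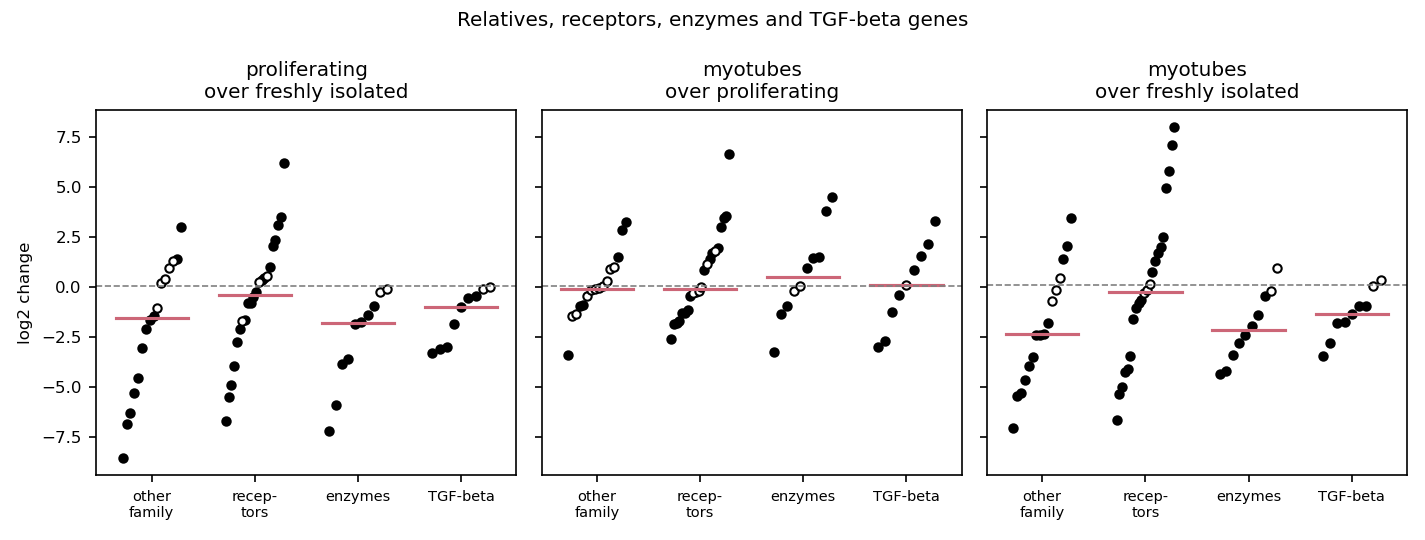
Log2 change of each tested gene of the 4 partner lists (other family members, receptors, processing and proteases, TGF-beta axis) in the 3 comparisons, with 1 point per gene (filled where it passed the limma threshold), a red line at the median of the list and a dashed line at the median of all genes tested. In proliferating against freshly isolated cells all 4 medians lie below 0, between -1.79 and -0.37, and the dashed line lies at 0.07. The median of the other family members, -1.53 over 16 genes, includes 5 that passed the filter only through the freshly isolated libraries. Over the 10 that did not depend on a single stage it is -0.40, beside 0.22 for all such genes.

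Of 13 genes that act in the cutting or crosslinking of these proteins, 10 passed the filter, and none rose, 8 fell and 2 did not pass in proliferating against freshly isolated cells (median -1.79), where 35.7% of all genes fell. The same counts held for myotubes against freshly isolated cells (median -2.16), where 40.2% of all genes rose and 37.3% fell. Adamts1 (-4.32 ± 0.13), Plat (-3.38 ± 0.44) and Bmp1 (-2.78 ± 0.11) were among those of the list that fell there. In both comparisons 0 of the 10 were higher at an unadjusted limma p below 0.05, with or without the trend. Adamts1, a protease known to cut thrombospondins, fell to 282, 359 and 360 in proliferating cells, against 21444, 20407 and 16445 in freshly isolated cells (-5.86 ± 0.13, limma adjusted p = 3.6e-10). The tissue plasminogen activator gene Plat (-7.17 ± 0.44), the gelatinase gene Mmp2 (-3.84 ± 0.15) and Bmp1, which encodes a procollagen processing protease (-1.84 ± 0.11), fell as well. In myotubes against proliferating cells 5 rose and 3 fell (median 0.52), where 28.6% of all genes rose and 25.5% fell as deposited. Tgm2, a transglutaminase that crosslinks fibronectin, had 144, 110 and 140 in myotubes, against 2, 3 and 15 in proliferating cells (4.51 ± 0.55, limma adjusted p = 7.02e-05, and 5.25 without proliferating replicate 3). Adamts1 rose by 1.53 ± 0.13 and Mmp2 by 1.47 ± 0.15.

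All 9 genes of the TGF-beta axis passed the filter, and none rose, 7 fell and 2 did not pass in proliferating against freshly isolated cells (median -0.98), where 35.7% of all genes fell. The 7 include Smad7, whose libraries overlapped (-0.43 ± 0.17, limma adjusted p = 0.0418), and 5 in all passed after rescaling to equal totals without Gm26917. Smad3, which carries the signal to the nucleus, fell to 312, 460 and 379 in proliferating cells, against 3689, 3632 and 3836 in freshly isolated cells (-3.29 ± 0.14, limma adjusted p = 1.65e-08). The ligand genes Tgfb2 (-3.10 ± 0.32) and Tgfb3 (-2.96 ± 0.31) and the receptor gene Tgfbr1 (-1.83 ± 0.09) fell as well. In myotubes against proliferating cells 4 rose and 4 fell (median 0.10), where 28.6% of all genes rose and 25.5% fell as deposited. Tgfb3 had 4238, 4043 and 4425 in myotubes, against 221, 659 and 530 in proliferating cells (3.31 ± 0.31, limma adjusted p = 1.4e-05), and Tgfb2 rose by 2.15 ± 0.32. The inhibitory Smad7 fell to 267, 297 and 232 in myotubes, against 2721, 1725 and 1918 in proliferating cells (-2.97 ± 0.17, limma adjusted p = 1.17e-06), and so did Ltbp1, which holds latent TGF-beta in the matrix (-2.70 ± 0.10). For proliferating and for myotubes against freshly isolated cells 0 of the 9 were higher at an unadjusted limma p below 0.05, with or without the trend. Between myotubes and freshly isolated cells none rose and 7 fell (median -1.34), where 40.2% of all genes rose and 37.3% fell. Among the 7 were Smad7 (-3.41 ± 0.17), Ltbp1 (-2.79 ± 0.10), Tgfb1 (-1.77 ± 0.14) and Smad3 (-1.73 ± 0.14).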

How the data were processed

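The score values analysed are in a table deposited by the authors, who had put read counts per gene on a common scale across libraries and rounded them. Per the submitters' processing notes, STAR 2.4.0a, featureCounts 1.4.5-p1 of Subread and the mouse build mm10 (GRCm38) were used. Per the labels' protocols, ribosomal RNA was removed from 100 ng of total RNA with RiboGone before stranded SMARTer library preparation. The tool behind the common scale, and whether counting used strand, are not given in the sources used here, so values of overlapping genes are uncertain. Columns that start with Q were assigned to freshly isolated cells because the other column prefixes match the other stages.

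Of 45706 genes, the 17291 with 10 or more in a minimum of 3 libraries were compared on log2(value + 1) in 1 limma model of 3 stages with a mean-variance trend, over 9 libraries. The test was two-sided, and a gene was called where p, adjusted by Benjamini-Hochberg across the whole set tested, was below 0.05. A count test would not suit such values and was not run. The 10 genes and the lists were chosen with earlier results of these data known. Genes named from the partner lists are up to 4 per list and comparison with the greatest called change, libraries that do not overlap and, in the higher stage, a mean no lower than 100. Wisp1, Cyr61 and Cd44 between proliferating and freshly isolated cells were added after their values were seen. A gene that meets this rule is not reported here. Nearest patterns came from tested genes with the same minimum mean. Exon lengths and coding transcripts are those of GENCODE vM21, and promoters those of RefSeq GRCm38.p6. Alternatives changed the pseudocount, filter, scaling, trend, replicate block and libraries used. The software was R 4.3.3, limma 3.58.1, Python 3.11.15, pandas 2.3.3, numpy 2.4.6 and matplotlib 3.10.9.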

Additional observations from a re-analysis of the deposited data

How the results depend on the processing

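Counts of genes called or without overlap were recomputed for 18 results under 18 settings, and all but 1 of the 324 values stayed within 1.5 times the reported count. The exception was the relatives called between proliferating and freshly isolated cells, with 7 to 11 when single libraries were left out, the lowest without freshly isolated replicate 3, where 12 instead of 16 relatives passed the filter. The relatives called between myotubes and proliferating cells ran from 4 to 9 around the reported 6, at the limit of 1.5 times. Leaving out single libraries gave 11302 to 12381 genes called for proliferating against freshly isolated cells, 7640 to 11185 for myotubes against proliferating cells and 12055 to 13239 for myotubes against freshly isolated cells.

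No log2 difference of the 10 genes changed direction where it had passed the threshold, and 11 of 537 recomputed values moved by more than the spread between replicates. Most of these came from rescaling to equal totals without Gm26917, which shifted the median of all genes by 0.21, -0.26 and -0.06 in the 3 comparisons. Between myotubes and proliferating cells, Fn1 no longer passed without proliferating replicate 1 or without myotube replicate 1 or 3, and Tnxb no longer passed without proliferating replicate 3 or without myotube replicate 2 or 3, while Sparc passed without freshly isolated replicate 1 or 2 and Thbs4 without 1 or 3, with a pseudocount of 4 or with the block. The 49 changes named from the partner lists, 3 of them added after seeing the data, kept direction and call in all 866 values that could be recomputed; leaving out a freshly isolated library took Vtn and Spock3 out of the filter. With transcript length in place of merged exons, an alternative chosen after seeing the data, 16 of 30 shares moved.

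Replicate numbers were not treated as pairs. The samples of a stage come from different animals, and whether same-numbered libraries of different stages share an animal is not known here. Deviations of same-numbered libraries correlated between -0.0338 and 0.027, which cannot settle this. With the replicate block 12563, 9088 and 13311 genes were called. Genes of a few reads, such as Thbs4 everywhere and Spp1 and Postn in freshly isolated cells, are limited by depth.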
